A study of Mus musculus with 2 samples.

Results

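Integrins are the receptors by which leukocytes hold on to other cells and to matrix. Here 7 integrin genes known from thymocytes and other leukocytes were followed through thymic development: Itgal, Itgb2, Itgb1, Itga4, Itgb7, Itgae and Itga6. They were chosen by name among the 20282 genes of the count matrix, and all 7 were in it. The study took thymi from littermates of 6 weeks, 5 with the genotype Cdc42f/f (WT) and 5 that were Cdc42f/f CD4Cre (KO), and pooled the thymocytes of each genotype into 1 library of droplet-captured single cells. Every mouse carried the floxed Cdc42 allele, and in the KO mice Cre from the CD4 promoter acts in thymocytes from about the double-positive (DP) stage on. The WT library held 6115 cells with a median of 3192 unique molecular identifiers (UMIs) per cell, and the KO library 7568 cells with a median of 3401.

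With 1 library per genotype there is no replicate check and no test between the genotypes, since cells of 1 library are not replicates. Levels are given as UMIs of a gene per 1000000 UMIs of the same cells (CPM), and genotypes are compared as the log2 ratio of KO over WT. All intervals are exact 95% intervals and cover counting error only, not the spread between mice. In these sums, fewer cells that express a gene and fewer transcripts per cell cannot be told apart. 17 cell barcodes occurred in both libraries, and leaving those cells out left the same number of members past 1.5-fold in each cell group.

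An integrin is a pair of 1 alpha and 1 beta chain, and the pairing sets the ligand. Itgal and Itgb2 encode the chains of LFA-1, which binds ICAM molecules and holds T cells to antigen-presenting cells. Itga4 pairs with Itgb1 to form VLA-4, a receptor for VCAM-1 and fibronectin, or with Itgb7 to form the receptor for MAdCAM-1 that guides lymphocytes to the gut. Itgae encodes the alpha chain CD103, which pairs with Itgb7 alone and binds E-cadherin on epithelial cells, and Itga6 pairs with Itgb1 to form a laminin receptor.

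The members lie on 6 chromosomes (GRCm38, GENCODE vM21), with Itga6 at chr2:71745616-71858416 and Itga4 at chr2:79255426-79333123 both on the plus strand of 1 of them. Itgb7 is on the minus strand at chr15:102215995-102231944 and has 15 exons in the model with most. Itgae is on the plus strand at chr11:73090583-73147446, Itgal at chr7:127296260-127335138, Itgb2 at chr10:77530252-77565708 and Itgb1 at chr8:128685654-128733200. No other annotated gene covers the 3′ end of a member, where this assay reads, except Cerkl on the strand opposite to Itga4. Itga6 is overlapped along its length by 2 other genes on its own strand, Gm13662 and Gm13663, to which reads could be split.

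RefSeq promoter windows of the same assembly were found for 3 of the 7 members. Those of Itgb7, the member with the largest KO over WT ratio in the DP cells, and of Itgb1, whose ratio had an interval holding 0 in each cell group compared, are shown, and the counts for Itga4 are given beside them. Each is the first 240 bases of the RefSeq promoter sequence, read 5′ to 3′ along the gene's strand, at chr15:102231946-102232185 (minus strand) and chr8:128685404-128685643 (plus strand). These are the bases furthest upstream, and the Itgb1 window ends short of the gene start given above. Capitals mark matches to CCNCNCCC, a motif bound by Krüppel-like factors, searched on both strands. It was chosen because Klf2, described further on, had the profile most like that of Itgb7 in WT. Gm20559 was about as near there, and Gimap3 and Ccr7 were nearer than Klf2 in KO.
Itgb7: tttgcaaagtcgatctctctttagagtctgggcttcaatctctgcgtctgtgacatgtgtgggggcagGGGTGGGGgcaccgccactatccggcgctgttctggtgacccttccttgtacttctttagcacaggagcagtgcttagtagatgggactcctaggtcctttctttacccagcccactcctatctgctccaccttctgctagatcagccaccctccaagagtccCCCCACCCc
Itgb1: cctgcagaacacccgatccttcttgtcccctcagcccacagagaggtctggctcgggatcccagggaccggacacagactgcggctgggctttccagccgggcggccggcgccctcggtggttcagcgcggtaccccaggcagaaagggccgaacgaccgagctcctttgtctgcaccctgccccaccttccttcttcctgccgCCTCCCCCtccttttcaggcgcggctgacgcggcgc
The Itgb7 window held 2 matches and the Itgb1 window 1, and 44.4% of 32851 promoter windows of this length held at least 1. The Itga4 window held 4, though the KO over WT ratios of Itga4 also had intervals holding 0 in the 4 cell groups. TGTGGT, the core motif of RUNX factors, was found in neither printed window and 1 time in that of Itga4, against 13.6% of all windows. These are letters in a window, not binding sites.

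The deposited table assigns the cells to 19 clusters, which were named by their highest marker. Clusters 0 to 4 had the highest Rag1 without high Top2a (2161 to 3165 CPM over both libraries) and are called the Rag1 DP clusters (3636 WT and 4641 KO cells). Clusters 5 and 9, with Cd5 at 1036 and 1054 CPM, are the Cd5 clusters, read as signalled DP cells (535 and 843 cells). Cluster 6, with Itm2a at 1785 CPM (479 and 316 cells), and cluster 7, with Ms4a4b at 1731 CPM (332 and 396 cells), are read as single-positive (SP) cells, with Rag1 at 87.2 and 136 CPM. In the 2 SP clusters together, 204 WT and 252 KO cells nonetheless had UMIs of both Cd4 and a Cd8 chain. Because the clusters were made from the expression of these same cells, levels across clusters are a description. Cdc42 itself was at 358 CPM in WT and 320.4 in KO in the Rag1 DP clusters, and at 446.6 and 581.5 in the Ms4a4b cluster. These 3′ reads lie outside the floxed exon, so they do not check the deletion.

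**Figure D1:**
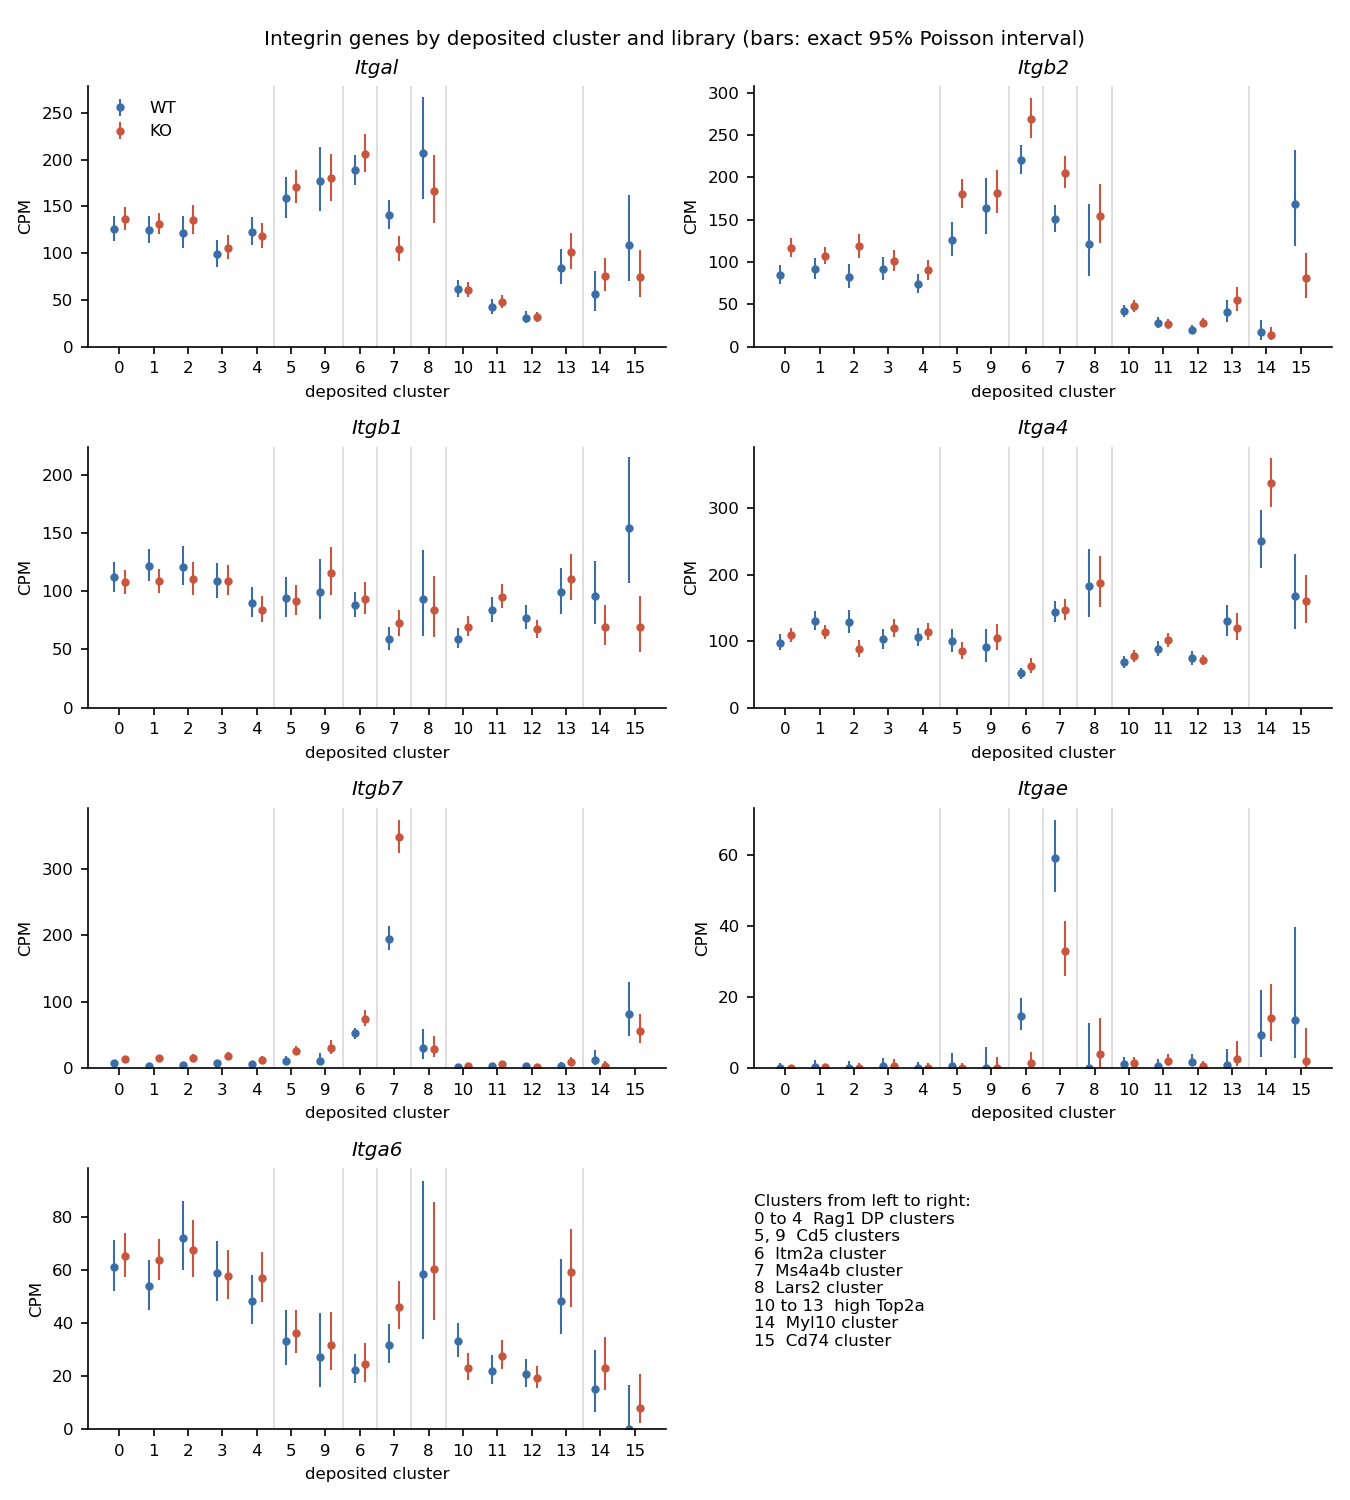
Level of each integrin gene (CPM) in the 16 deposited clusters with at least 50 cells in both libraries, WT in blue and KO in red, with exact 95% Poisson intervals. Itgb7 and Itgae were highest in cluster 7 (195 and 59.3 CPM in WT), Itgb2 in cluster 6 (220.2) and Itga6 in cluster 2 (72.4).

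The chains of LFA-1 were found in each of the 16 clusters and were higher in the Cd5 and Itm2a clusters than in the Rag1 DP clusters. In WT, Itgal was at 99.1 to 125.7 CPM in the 5 Rag1 DP clusters, at 158.6 and 176.6 in the Cd5 clusters, at 188.4 in the Itm2a cluster and at 140.9 in the Ms4a4b cluster. It was lowest in cluster 12, which has high Top2a, at 31.3 CPM, and the small Lars2 cluster had 207 CPM (60 UMIs). Itgb2 took a like course, from 73.9 to 91.6 CPM in the Rag1 DP clusters to 220.2 in the Itm2a cluster, with 151.2 in the Ms4a4b cluster and 17.0 in the cluster marked by Myl10. Neighbours in the order of WT clusters had overlapping intervals for Itgal throughout, and for Itgb2 except at the step from cluster 4 to cluster 10, which has high Top2a. Over 18 clusters with at least 20 cells in both libraries, the 2 genes correlated at r = 0.84 in WT and 0.89 in KO, a description of clusters that share a library and differ in depth.

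Itgb1 spanned a narrow range over the 16 clusters. In WT it was between 58.8 CPM in the Ms4a4b cluster and 154.6 in the small cluster marked by Cd74 (34 UMIs), with 90.1 to 122 in the Rag1 DP clusters, and each neighbour in this order overlapped the next. In KO the Cd74 cluster was at 68.9 CPM (34 UMIs). Outside the 16, the cluster marked by Apoe had Itgb1 at 283.8 CPM in WT (12 UMIs) and 98.2 in KO (7 UMIs). Itga4 had another course. It was lowest in the Itm2a cluster (51.4 CPM in WT, 62.2 in KO), was at 144.7 and 147.3 in the Ms4a4b cluster, and was highest in the Myl10 cluster, at 250.9 CPM in WT (133 UMIs) and 338.2 in KO (335 UMIs). In KO, the interval of the Myl10 cluster lay above that of the cluster next in order. Itga6 was highest in cluster 2 of the Rag1 DP clusters (48.4 to 72.4 CPM over these in WT), was at 22.3 in the Itm2a cluster, and had 31.8 in the Ms4a4b cluster.

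The beta 7 chain and its partner Itgae were highest in the Ms4a4b cluster. In WT, Itgb7 was at 4.15 to 8.74 CPM in the Rag1 DP clusters, at 11.2 and 11.7 in the Cd5 clusters, at 52.4 in the Itm2a cluster and at 195 in the Ms4a4b cluster, whose interval lay above that of every other cluster in the order. Itgae was at 14.7 CPM in the Itm2a cluster (45 UMIs) and at 59.3 in the Ms4a4b cluster (138 UMIs), and had 2 UMIs in all 3636 WT cells of the Rag1 DP clusters. Outside the SP cells it was at 9.43 CPM in the Myl10 cluster (5 UMIs). The correlation of Itgb7 with Itgae over the 18 clusters was 0.88 in WT and 0.56 in KO.

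Between genotypes, Itgb7 was the member with the largest ratio in the DP cells. In the Rag1 DP clusters it was at 6.35 CPM in WT (69 UMIs) and 15.4 in KO (237 UMIs), a log2 ratio of 1.27 (0.89 to 1.69). KO was higher in each of the 5 clusters, with log2 ratios from 0.70 in cluster 0 to 1.88 in cluster 1, and in cluster 0 alone the interval reached 0 (-0.01 to 1.49). Of 9907 genes with at least 100 UMIs in these cells, 1.88% were at least 1.5-fold higher in KO and 0.565% at least 1.5-fold lower. Of the 6 members with that many UMIs, all but Itgae, Itgb7 alone was past 1.5-fold, and none was lower. The split over all genes, 186 higher and 56 lower, became 145 and 74 with DESeq2 size factors, and Itgb7 stayed past the fold.

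The levels of Itgb7 in DP cells were low, and free RNA gives low counts in cells that lack a gene. In the high Top2a clusters 10 to 13 Itgb7 was at 2.20 to 3.96 CPM in WT and 2.53 to 8.87 in KO, and in the Myl10 cluster at 13.2 (7 UMIs) and 4.04 (4 UMIs). Clusters 10 to 13 had medians of 5466 to 22440 UMIs per cell, against 2540 to 3905 in the Rag1 DP clusters. The same amount of free RNA per cell would give a lower CPM in such deeper cells, so these levels set no floor for the DP cells. The shallower Lars2 cluster, with medians of 955.5 UMIs per cell in WT and 1200 in KO, had Rag1 at 1870 CPM over both libraries. Itgb7 was there at 31.05 CPM in WT (9 UMIs) and 29.3 in KO (15 UMIs), a log2 ratio of -0.11 (-1.37 to 1.29). Ms4a4b, the marker of the late SP cluster, was at 15.5 CPM in WT and 19.4 in KO in the Rag1 DP clusters, a log2 ratio of 0.33 (0.05 to 0.61). In the Ms4a4b cluster itself, Ms4a4b was at 1591 CPM in WT and 1875 in KO, and Itgb7 at 195 and 348.5. The 2 genes thus differed between genotypes unequally there too, so their ratios in DP cells do not measure free RNA. In the Cd5 clusters Ms4a4b was at 68.1 and 68.7 CPM, while Itgb7 was at 11.5 CPM in WT (22 UMIs) and 28.1 in KO (96 UMIs). The log2 ratio of Itgb7 there was 1.26 (0.60 to 2.02). The part of free RNA in these values was not tested further. In the Cd5 clusters 2.23% of 6186 genes were at least 1.5-fold higher in KO and 0.42% lower, and Itgb7 was the only one of the 6 members counted that was past the fold.

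**Figure D2:**
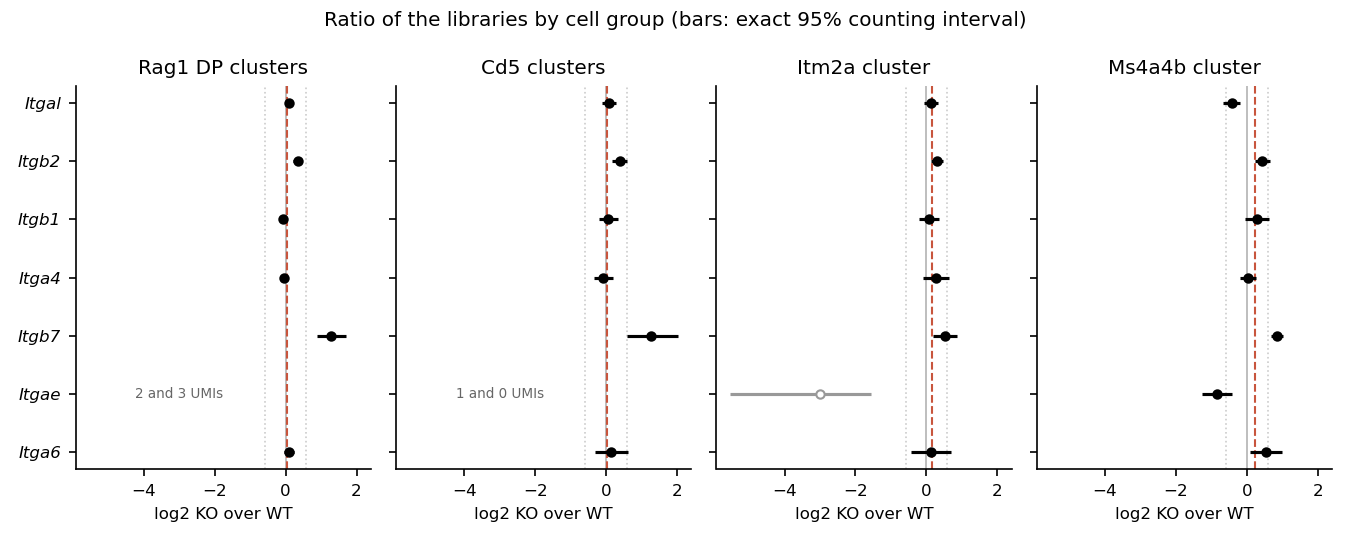
Log2 ratio of KO over WT for the 7 members in 4 cell groups, with exact 95% counting intervals. The dashed red line is the median of all genes with at least 100 UMIs and the dotted lines are 1.5-fold. Open grey marks have fewer than 100 UMIs. Itgb7 lies right of the other members in the Rag1 DP and Cd5 clusters, and Itgae lies furthest left in both SP clusters.

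In the SP clusters the whole distribution of ratios was shifted. The median log2 ratio of all genes was 0.15 for Itm2a and 0.23 for Ms4a4b, against 0.04 and 0.03 in the Rag1 DP and Cd5 clusters, so member ratios are also given relative to it. In the Itm2a cluster 324 genes were at least 1.5-fold higher in KO and 120 lower (5.59% and 2.07% of 5793), which became 103 and 280 under TMM, 104 and 279 under DESeq2 size factors and 139 and 229 when ribosomal protein and mitochondrial genes were kept out of the totals. The Ms4a4b cells differed in depth, with medians of 6738 UMIs per cell in WT and 5032 in KO, and 818 of their genes were higher and 149 lower (15.1% and 2.75% of 5414), which became 263 and 420 with TMM, 312 and 351 with DESeq2 size factors and 382 and 297 with the reduced totals. None of the 6 members counted was past the fold in the Itm2a cluster, and 2 of 7 were in the Ms4a4b cluster, Itgb7 higher and Itgae lower.

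Itgb7 was higher in KO in both SP clusters. Itm2a-cluster cells had 52.4 CPM in WT (160 UMIs) and 74.9 in KO (141 UMIs), with a log2 ratio of 0.52 (0.18 to 0.85), or 0.36 relative to the median gene. At the finer deposited resolutions the Itm2a-marked cluster held 173 WT and 186 KO cells with 15 and 53 Itgb7 UMIs, and the log2 ratio was 1.53. Ms4a4b-cluster cells had 195 CPM in WT (454 UMIs) and 348.5 in KO (790 UMIs), with a log2 ratio of 0.84 (0.67 to 1.01), or 0.61 relative to the median. The log2 ratio of 0.84 became 0.58 with TMM factors and 0.56 in cells thinned to 1000 UMIs, both just under 1.5-fold. Over the 16 larger clusters, KO was higher in 12, with 9 intervals above 0 and none below.

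Itgae differed in the other direction. Itm2a-cluster cells had 45 UMIs in WT and 3 in KO (14.7 and 1.59 CPM), and with under 100 UMIs it is not among the genes counted. In the Ms4a4b cluster it was at 59.3 CPM in WT (138 UMIs) and 33.1 in KO (75 UMIs), a log2 ratio of -0.84 (-1.27 to -0.42), or -1.07 relative to the median gene. Other values differed beside it. Ms4a4b in the Itm2a cluster was at 322.7 CPM in WT and 136.6 in KO. The markers of gamma-delta T cells (2 genes in the matrix, both with UMIs) summed to 101.3 and 225.9 CPM in the Ms4a4b cluster, and those of regulatory T cells (3 genes, all with UMIs) to 46.4 and 6.18. The markers of innate-like T cells (4 genes, all with UMIs) summed to 99.6 and 35.6 CPM in the Itm2a cluster and 395.9 and 270.4 in that of Ms4a4b. Most of these UMIs were of 1 gene, Nkg7, so the sum does not mark a cell type by itself. By coreceptor UMIs, a split described further on, Nkg7 was at 395.5 CPM in WT and 267.9 in KO in Cd8-only cells. It was at 41.5 and 11.85 in Cd4-only cells, 74.35 and 67.3 in cells with both, and 235.4 and 332.6 in cells with neither. The part of gamma-delta, regulatory and innate-like T cells in the Itgae values was not tested beyond the cells left out next. Without cells carrying at least 2 gamma-delta constant-region UMIs, a choice made after the data were seen, the log2 ratio of Itgae in the Ms4a4b cluster was -1.60, and without cells with a Foxp3 UMI it was -0.86. With WT cells weighted to the maturation of the KO cells it was -0.54, which is under 1.5-fold. The score behind these weights, described further on, contains Klf2 and S1pr1, which were themselves higher in KO in this cluster, so the weighting does not match maturity apart from genotype.

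The chains of LFA-1 parted in the late SP cells. Itgb2 was higher in KO in all 4 cell groups with each interval above 0: 84.9 and 107.3 CPM in the Rag1 DP clusters (log2 ratio 0.34), 138.3 and 180.7 in the Cd5 clusters (0.38), 220.2 and 268.9 among Itm2a-cluster cells (0.29), and 151.2 and 205.1 among Ms4a4b-cluster cells (0.44). These intervals hold for scaling by total UMIs. Relative to the median gene the ratios were 0.30, 0.36, 0.13 and 0.21, each under 1.5-fold. Over 15 alternatives the ratio of Itgb2 stayed above 0 but went as low as 0.12 in the Itm2a cells and 0.18 in the Ms4a4b cells. The highest values were 0.55 and 0.54. Itgal had intervals holding 0 in the first 3 groups, with log2 ratios of 0.08 to 0.13. Ms4a4b-cluster cells had Itgal at 140.9 CPM in WT (328 UMIs) and 104.6 in KO (237 UMIs), a log2 ratio of -0.43 (-0.68 to -0.18). That is under 1.5-fold, but it was past it under TMM (-0.69), under DESeq2 size factors (-0.65), with the reduced totals (-0.60) and by the mean over cells (-0.59), and nearer to 0 with WT cells weighted to the maturation of the KO cells (-0.26).

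Itgb1, Itga4 and Itga6 were not past 1.5-fold in any of the 4 cell groups. Itgb1 was at 110.6 CPM in WT and 104.7 in KO in the Rag1 DP clusters and at 58.8 and 72.4 in the Ms4a4b cluster, and its log2 ratios of -0.08 to 0.30 all had intervals holding 0. Itga4 had ratios of -0.08 to 0.28, again with 0 inside each interval. Within the Rag1 DP group its clusters differed: in cluster 2 Itga4 was at 129.1 CPM in WT and 88.4 in KO (-0.55, -0.83 to -0.27), in cluster 1 it was at 130.7 and 114 (-0.20, -0.41 to 0.01), and in clusters 0, 3 and 4 KO was the higher value with intervals holding 0. Itga6 was at 31.8 CPM in WT (74 UMIs) and 46.3 in KO (105 UMIs) in the Ms4a4b cluster, with a log2 ratio of 0.54 (0.10 to 0.99). That ratio was between 0.28 and 1.47 over 15 alternatives, and past 1.5-fold in cells thinned to 1000 UMIs, without the top 5% of cells by UMIs, without gamma-delta marked cells, without cells with a Foxp3 UMI and by the mean over cells. The median log2 ratio over the members counted was 0.09 in the Rag1 DP, 0.11 in the Cd5, 0.21 in the Itm2a and 0.30 in the Ms4a4b cells, close to the 0.04, 0.03, 0.15 and 0.23 of all genes.

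When the cells of both SP clusters were split by their own coreceptor UMIs, Itgae was found almost wholly outside the Cd4-only cells. In WT, cells with Cd8a or Cd8b1 but no Cd4 UMI had Itgae at 81.4 CPM (68.6 to 95.95, 142 UMIs in 245 cells), and cells with Cd4 alone had 1.46 CPM (2 UMIs in 206 cells). The log2 ratio of the Cd8-only over the Cd4-only cells was 5.49 (3.93 to 8.87). In KO, the Cd8-only cells had 43.5 CPM (39 UMIs in 162 cells) and the Cd4-only cells none in 168 cells. The exact interval of that 0 count reaches 3.97 CPM, and a floor of 3 UMIs would be 3.23 CPM. Against the floor of 3 UMIs the level was 13.47-fold higher in the Cd8-only cells. The exact interval of the ratio, which also counts the error of the Cd8-only cells, reached down to 10.45-fold. Summed over both SP clusters, Itgb7 did not differ between these classes by more than the counting error in either genotype. Its Cd8-only over Cd4-only log2 ratios were 0.04 (-0.26 to 0.35) in WT and -0.09 (-0.36 to 0.18) in KO. In KO cells of the Ms4a4b cluster Itgb7 was at 461.6 CPM in Cd4-only (202 UMIs) and 360.5 in Cd8-only cells (195 UMIs). In WT cells of that cluster the values were 214.8 and 194.4 CPM. The difference between these classes within a single cluster was not tested. Itgb2, again over both clusters, was lower in the Cd8-only cells in WT (159.4 against 221.8 CPM, -0.48, -0.72 to -0.24). In KO the interval of the same ratio held 0 (-0.26, -0.54 to 0.01).

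Within the coreceptor classes, Itgb7 was higher in KO in each. It was at 118.5 CPM in WT and 260.6 in KO in the Cd4-only cells (log2 ratio 1.14, 0.84 to 1.43) and at 122.1 and 244.5 in the Cd8-only cells (1.00, 0.72 to 1.28). In cells with both coreceptors the log2 ratio was 0.95 and in cells with neither 0.96, and the 4 intervals overlapped. Itgae in the Cd8-only cells was lower in KO, with a log2 ratio of -0.89 (-1.45 to -0.38), beside Trdc, a gamma-delta T cell gene, at 45.3 CPM in WT and 163 in KO in those same cells. Cells with both coreceptors had Itgae at 11.4 CPM in WT and 5.66 in KO (15 and 9 UMIs, -0.98, -2.38 to 0.28). In cells with neither it was higher in KO, at 25.45 and 40.9 CPM (24 and 30 UMIs, 0.68, -0.14 to 1.52). Both intervals held 0. The Cd8-only KO cells of the Itm2a cluster had 2 Itgae UMIs against 39 in WT (5.63 and 42.1 CPM), and those of the Ms4a4b cluster 37 against 103 (68.4 and 125.9 CPM). Taking each SP cluster alone, Itgb7 had a log2 ratio of 0.36 (-0.27 to 0.96) in the Cd4-only cells and 0.23 (-0.54 to 0.93) in the Cd8-only cells of the Itm2a cluster, and of 1.10 and 0.89 in those of the Ms4a4b cluster, with both intervals above 0. The Cd4-only class held 130 WT and 78 KO cells of the Itm2a cluster and 76 and 90 of the Ms4a4b cluster, where Itgb7 is higher. For the Cd8-only class these were 139 and 65, and 106 and 97. The ratios over both clusters therefore also hold this difference in shares.

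**Figure D3:**
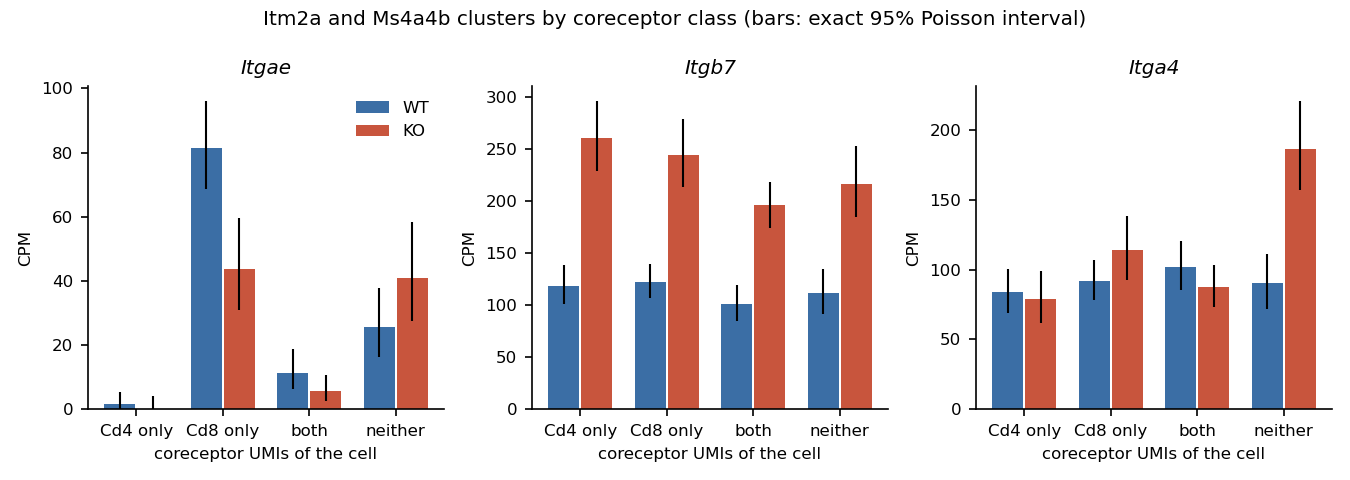
Levels (CPM) of Itgae, Itgb7 and Itga4 in cells of the Itm2a and Ms4a4b clusters, sorted by whether a cell had UMIs of Cd4 only, of Cd8a or Cd8b1 only, of both or of neither, WT in blue and KO in red, with exact 95% Poisson intervals. Itgae was at 81.4 CPM in the WT Cd8-only cells and at 1.46 in the WT Cd4-only cells, Itgb7 was higher in KO in each class, and Itga4 was higher in KO in cells with neither coreceptor.

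Over both SP clusters, Itga4 had a ratio with an interval away from 0 in 1 coreceptor class. In SP-cluster cells with neither coreceptor detected it was at 90.1 CPM in WT (85 UMIs in 156 cells) and 186.7 in KO (137 UMIs in 130 cells), a log2 ratio of 1.05 (0.65 to 1.46). The class lay in different clusters by genotype, with 77 WT and 39 KO cells in the Itm2a cluster and 79 and 91 in the Ms4a4b cluster, where Itga4 is higher. Within the Itm2a cluster the log2 ratio was 1.20 (0.21 to 2.21, 18 and 20 UMIs) and within the Ms4a4b cluster 0.72 (0.28 to 1.18). In the other classes the log2 ratios were -0.09 in the Cd4-only, 0.31 in the Cd8-only and -0.22 in the double-detected cells, each with 0 inside its interval, but in the double-detected cells of the Ms4a4b cluster alone it was -0.47 (-0.92 to -0.02). In the class with neither coreceptor Trdc was at 159 CPM in WT and 385.7 in KO, and its part in the result was not tested. In the SP cells with at least 2 gamma-delta constant-region UMIs, Itga4 was at 134.4 CPM in WT (45 cells) and 247.5 in KO (52 cells).

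The SP cells of the 2 libraries differed in their spread over a maturation score, a range of expression and not a cell type. The score was taken over both SP clusters as the mean log level of 6 late genes (among them Klf2, S1pr1, Ms4a4b, Ms4a6b and Il7r) minus that of 6 early genes (Cd24a, Ccr9, Cd69, Rag1, Rag2 and Sox4), and cut into 5 bins. The top bin held 89 WT and 216 KO cells and the third 202 and 103. Klf2 and S1pr1 were themselves higher in KO in the Ms4a4b cluster, so this spread does not show maturity apart from genotype. Itgb7 was higher in each bin than in the bin before, from 14.5 CPM in bin 1 to 246.1 in bin 5 in WT and from 49.9 to 417.4 in KO. Itgal went the other way, from 187.4 to 105.9 CPM in WT and from 219 to 88.2 in KO.

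Within the bins, Itgb7 was higher in KO in 5 of 5, with log2 ratios of 1.74, 1.00, 0.99, 0.81 and 0.76 from the lowest to the highest bin and each interval above 0. Klf2, which encodes a transcription factor of T cell egress and is itself in the score, was at 15.7 CPM in WT and 77.9 in KO in bin 1 and at 985.8 and 2193 in bin 5. Itgae was lower in KO in 5 of 5 bins, but in bin 5 alone was the whole interval below 0 (58.7 and 23.45 CPM, -1.31, -2.12 to -0.55). Itgal was lower in KO in bins 3 and 4 with intervals just below 0 (-0.37 and -0.39), and its intervals in bins 1, 2 and 5 held 0. Itgb2 was higher in KO in bins 2, 4 and 5 with intervals above 0, the largest ratio being 0.78 in bin 5 (117.3 and 202.6 CPM). Itga4 was higher in KO past 1.5-fold in bins 2 (0.63, 0.10 to 1.17) and 5 (0.61, 0.20 to 1.04), with intervals holding 0 in the other bins. Itgb1 had an interval above 0 in bin 4 alone (0.52, 0.03 to 0.99), and Itga6 in bin 3 alone (0.72, 0.01 to 1.41).

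**Figure D4:**
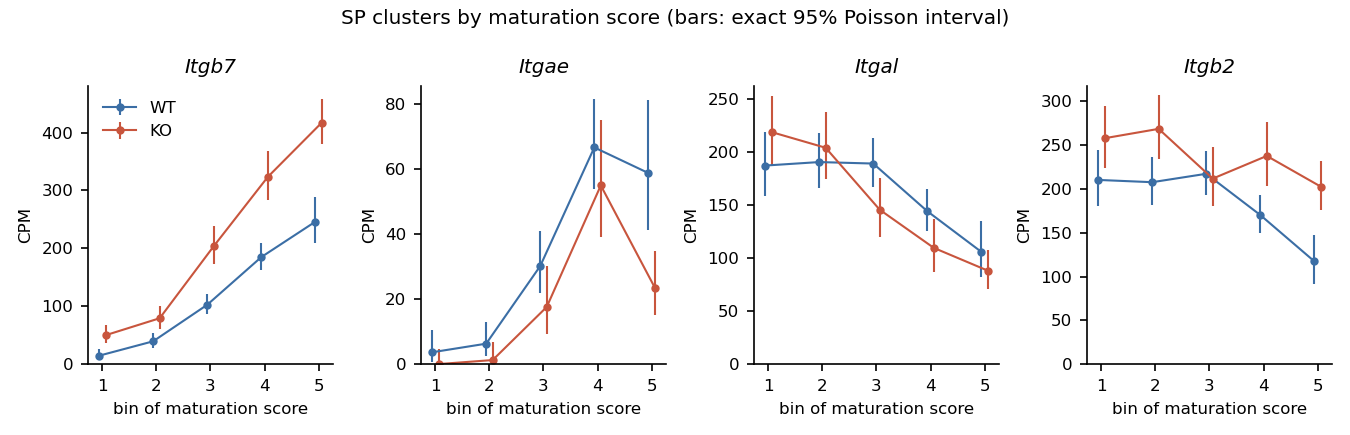
Levels (CPM) of 4 members in 5 bins of the maturation score over the cells of the Itm2a and Ms4a4b clusters, from the lowest (1) to the highest score (5), WT in blue and KO in red, with exact 95% Poisson intervals. The score contains genes that were themselves higher in KO. Itgb7 was higher with each bin and higher in KO in all 5, from 14.5 and 49.9 CPM in bin 1 to 246.1 and 417.4 in bin 5, and Itgal was lower in bin 5 than in bin 1 in both libraries.

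The genes around the integrins were described by 5 lists: other integrin subunits, activators and adaptors of integrins, inhibitors, ligands, and other adhesion molecules of leukocytes. Before the SP stage few were past 1.5-fold, as among all genes. In the Rag1 DP clusters, of the 43 genes with at least 100 UMIs only Cd44, the hyaluronan receptor, was past 1.5-fold (3.68 CPM in WT, 8.79 in KO, log2 ratio 1.24, 0.74 to 1.802). Of all genes counted there, 1.88% were higher past the fold and 0.565% lower. In the Cd5 clusters none of 39 was, beside 2.23% of all genes higher and 0.42% lower. Among the Itm2a-cluster cells Pxn, Icam2 and Cd6 were higher among 41, beside 5.59% of all genes, at log2 ratios of 0.64, 0.64 and 0.65, and none of these 3 was past the fold with TMM, DESeq2 or the reduced totals. With those 3 scalings Icam1, an LFA-1 ligand at 26.5 CPM in WT and 17.5 in KO, was lower past the fold instead.

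Of the 39 genes counted in the Ms4a4b cluster, 10 were higher past 1.5-fold and none lower, beside 15.1% of all genes higher. Of 23 activators and adaptors, 5 were higher: Rasgrp2, the exchange factor that switches on Rap1, was at 201.8 CPM in WT and 446 in KO (log2 ratio 1.14, 0.98 to 1.31), and Crk, Dock2, Rap1b and Cd47 had ratios of 0.85, 0.80, 0.75 and 0.60. The median of this list, 0.34, was near the 0.23 of all genes, and Tln1, the talin that links beta chains to actin, was at 325.1 and 404.1 CPM (0.31). Fermt3, the kindlin of blood cells, was at 169.6 and 162.3 CPM, with an interval that held 0. With TMM or DESeq2 size factors only Rasgrp2 and Crk of this list were past the fold, and with the reduced totals Dock2 as well.

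Of the 5 inhibitors, Flna, an actin crosslinker that competes for the beta tail, was at 141.3 CPM in WT and 263.8 in KO (0.90, 0.70 to 1.10) and Cytip at 381.8 and 596.9 (0.64). Icam2, the only ligand with enough UMIs, was at 51.1 and 82.1 CPM (0.68), and Spn, the large sialylated protein CD43, at 122 and 226.3 (0.89). Itgb3 was the only other integrin subunit with at least 100 UMIs, at 23.6 CPM in WT (55 UMIs) and 60.4 in KO (137 UMIs), a log2 ratio of 1.35 (0.89 to 1.83), while in the Itm2a cluster it was at 38.0 and 39.9 CPM. With all 3 of those scalings Flna, Spn and Itgb3 stayed past the fold, Cytip and Icam2 did not, and Cd226 was lower past the fold. Markers of macrophages (5 genes, all with UMIs) summed to 6.01 CPM in WT and 36.6 in KO in this cluster, with Itgam at 4 UMIs in each library and Itgax at 1 and 15, and their part in these values was not tested.

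**Figure D5:**
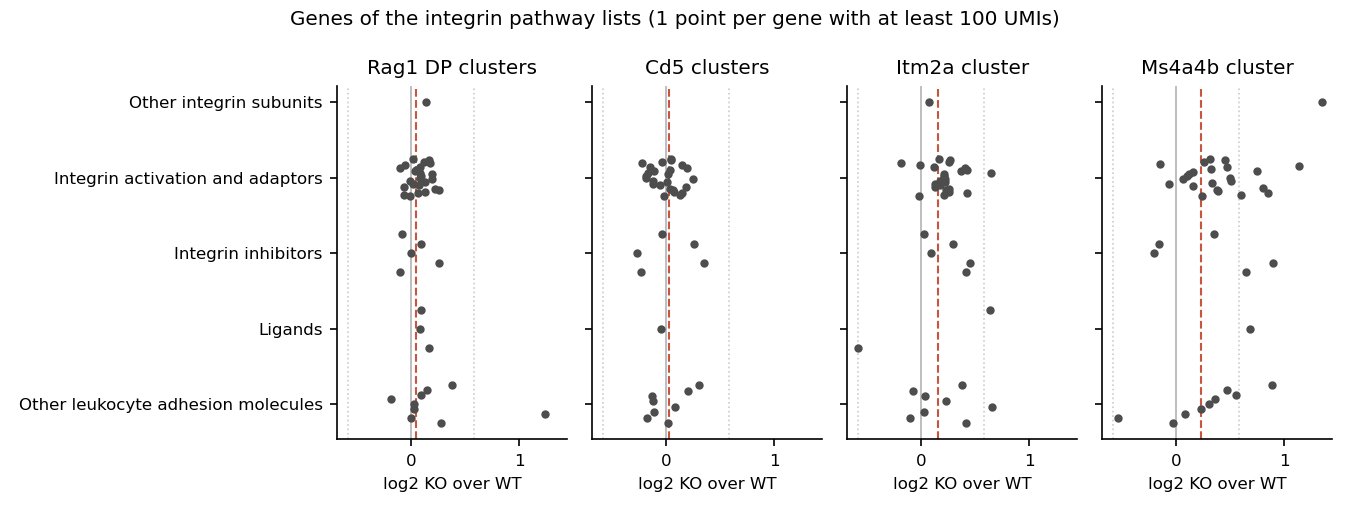
Log2 ratio of KO over WT for the genes of 5 lists around the integrins, 1 point per gene with at least 100 UMIs over both libraries, in 4 cell groups. The dashed red line is the median of all genes counted and the dotted lines are 1.5-fold. Points gather near the median in the Rag1 DP and Cd5 clusters, with Cd44 apart in the former, and 10 genes lie past 1.5-fold in the Ms4a4b cluster.

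The genes most like each member were taken by the Pearson correlation of log2(CPM + 10) over 18 clusters in WT, among 6529 genes with at least 500 WT UMIs. The 18 include clusters 16 and 17, with 42283 and 29147 WT UMIs in all, where 3 UMIs of a gene are 70.95 and 102.9 CPM. Such sparse points can weigh heavily in these correlations and in those between members given above. Correlations without these 2 clusters are not given. Nearest to Itgb7 were Klf2 (r = 0.93 in WT, 0.85 in KO), Gm20559, Gimap3 (0.92 in both), Ccr7 (0.91 and 0.89) and Smad7, and nearest to Itgae were Klf2 (0.93 and 0.61), Cd7, Smad7, Slfn1 and Tnfrsf4. Nearest to Itgal was Ptprc, the phosphatase CD45 (0.97 and 0.92), followed by Trim12a, Slc44a2, Lrrfip1 and Itsn2. Itgb2 was nearest to Nedd9, Cd52, Ptk2b, Sp100 and Zfp36l1, with Nedd9, a scaffold protein, at 0.94 and 0.72. For Itga4 these were Mknk2, Vps72, Crebzf, Tapbpl and Aff3 (0.86 to 0.90 in WT), for Itga6 Cipc, Magi3, Snapc3, Klhl20 and Phf20l1 (0.95 to 0.96), and for Itgb1 Epn1, Lrrc47, Hsd17b4, Rabggtb and Cat. Of the genes like Itgb1, Epn1 was at 0.98 in WT and -0.23 in KO and Rabggtb at 0.95 and -0.55, while Lrrc47, Hsd17b4 and Cat were at 0.59, 0.64 and 0.50 in KO.

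Klf2 itself was higher in KO in all 4 cell groups. It was at 9.95 CPM in WT (19 UMIs) and 65.2 in KO (223 UMIs) in the Cd5 clusters, a log2 ratio of 2.68 (2.03 to 3.47), and at 679.4 and 1626 CPM in the Ms4a4b cluster, a ratio of 1.26 (1.17 to 1.35). S1pr1, the egress receptor, was at 260.7 and 642.8 CPM in the latter. In the Cd5 clusters S1pr1 had 0 UMIs in WT and 4 in KO.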

How the data were processed

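The deposited count matrix holds UMI counts per gene and cell, which the authors made from reads of the 3′ ends of transcripts and did not normalize. The authors had filtered cells by detected genes and by reads. The submitters' processing notes name Cell Ranger 3.0.2, STAR, Seurat and mm10. Cluster numbers are the deposited current ones. A deposited mitochondrial percent was 0 throughout and was left unused. The condition came from the cell names.

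The libraries held 29706197 WT and 37920214 KO UMIs. Counts were summed per cell group and library and scaled by the UMIs of that group, with 0.5 added to both sums in a ratio. Intervals were Poisson for CPM and conditional binomial for ratios. A gene was past the fold at 1.5 with at least 100 UMIs over both libraries. The computation was tested on simulated data. Doublets were not removed in the main values. Alternatives were TMM (edgeR 4.0.16), DESeq2 1.42.0 size factors, other totals, filters, resolutions and cells left out (shared barcodes, gamma-delta marked cells and Foxp3-positive cells after seeing the data), including the 6% of cells with the highest Scrublet score (scanpy 1.11.5).

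The members and lists were chosen with earlier results of these data known. Genes named are the members, those of the 5 lists, and the 5 genes whose WT profile over clusters was most like each member's. Klf2, S1pr1, Ms4a4b, Trdc, Nkg7 and Foxp3 are given as markers. A gene of the lists and of the maturation score is not reported here by name.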

Additional observations from a re-analysis of the deposited data

How the results depend on the processing

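Of 339 values of the members' log2 ratios under the alternatives, 316 stayed within the counting interval, 23 did not, and 314 kept the sign. Itgb7 kept its sign in each of them, with log2 ratios of 1.19 to 1.34 in the Rag1 DP, 1.11 to 1.37 in the Cd5, 0.35 to 1.53 in the Itm2a, and from 0.56 up to 0.90 in the Ms4a4b cells. The 1.53 belongs to the Itm2a-marked clusters at resolutions 1.8 and 2, which hold 173 WT and 186 KO cells with 15 and 53 Itgb7 UMIs. The number of members past 1.5-fold in the Cd5 clusters was 2 with no minimum of UMIs. In the Itm2a cluster it was 2 with cells thinned to 1000 UMIs, and 1 without the top 5% of cells by UMIs, with a minimum of 20 UMIs, no minimum, maturation weights or the mean over cells. In the Ms4a4b cluster, where the 2 were Itgb7 and Itgae, it was 1 with maturation weights (Itgb7) and 4 with the mean over cells. It was 3 with DESeq2 size factors or reduced totals, which added Itgal, and without the top 5% of cells, gamma-delta marked cells or cells with a Foxp3 UMI, which each added Itga6. With TMM the 2 were Itgal and Itgae and in thinned cells Itgae and Itga6, so Itgb7 fell short in both. Under TMM, DESeq2 and reduced totals, in that order, the genes of lists past the fold numbered 0, 0 and 0 for activators and for other adhesion molecules in the Itm2a cluster, and, for the Ms4a4b cluster, 2, 2 and 3 activators, 1, 1 and 1 inhibitors, 0, 0 and 0 ligands and 2, 2 and 2 other adhesion molecules. Without cells over 10% mitochondrial UMIs the cluster highest for Itgal in KO was 8 in place of 6, and by the mean over cells that for Itgb1 in WT was 1 in place of 15. Itgae in Cd8-only cells was at 42.1 CPM in WT and 5.63 in KO in the Itm2a cluster alone and at 125.9 and 68.4 in the Ms4a4b cluster alone. In Cd4-only WT cells it was 0 in the Itm2a cluster alone and with 2 coreceptor UMIs required. The log2 ratio of Itgb7 in the Itm2a cluster alone was 0.36 in the Cd4-only and 0.23 in the Cd8-only cells. With Spearman in place of Pearson correlation, 1 of the 5 genes most like Itgal was shared, 2 for Itgb2, 0 for Itgb1, 1 for Itga4, 1 for Itgb7, 1 for Itgae and 0 for Itga6. The causes were not tested. Genes past the fold over the matrix, higher and lower, in the Rag1 DP, Cd5, Itm2a and Ms4a4b cells in that order, were 473 and 200, 478 and 299, 965 and 466, and 1309 and 429 in thinned cells, 753 and 334, 692 and 351, 1106 and 485, and 2012 and 532 at a minimum of 20 UMIs, and 3393 and 1952, 3684 and 2549, 4063 and 2789, and 5093 and 2785 with none, where sums are small. In the Itm2a cluster they were 74 and 25 at resolutions 1.8 and 2, and 216 and 84 with maturation weights. No paired analysis was possible because each genotype is 1 library.

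Depth limits Itgae most, with 222 UMIs in the WT and 119 in the KO library. All differences between genotypes rest on 1 pooled library each, so mouse, pool and library preparation cannot be told apart from genotype. No leave-one-out was possible.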

Other observations

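Among cells of the SP clusters with at least 2 UMIs of Trdc, Trgc1, Trgc2 and Trgc4 together (45 WT and 52 KO), a class set after the data were seen, Itgae was at 91.1 CPM in WT (40 UMIs) and 96.4 in KO (44 UMIs), with a log2 ratio of 0.08 (-0.57 to 0.74). In the same cells Itgb1 was at 93.4 and 164.2 CPM (0.81, 0.25 to 1.40) and Itga4 at 134.4 and 247.5 (0.87, 0.41 to 1.36). Trdc itself was at 517.1 CPM in WT and 1119 in KO in these cells.

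Cells of the SP clusters with a Foxp3 UMI numbered 21 in WT and 0 in KO. In those 21 cells Itgb7 was at 212.6 CPM (26 UMIs), Itga4 at 204.4 (25 UMIs), Itga6 at 65.4 (8 UMIs) and Itgae at 32.7 (4 UMIs).

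Cluster 18, with 24 WT and 8 KO cells too small for the order of clusters, had both Top2a (1952 CPM) and Ms4a4b (1409 CPM). Itgb7 was at 193 CPM in WT (85 UMIs) and 340.1 in KO (48 UMIs) there, Itgb2 at 131.7 and 283.4, and Itgae at 36.3 (16 UMIs) and 21.3 (3 UMIs).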
